A study of Danio rerio with 24 samples.

Results

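The genes described here are factors of ribosome biogenesis, the assembly line that turns out new ribosomes, in zebrafish retinal pigment epithelium (RPE). They were chosen by name from a list of 54, and 53 of these names were found in both deposited gene tables, which hold 25281 genes each. The remaining name, *brix1*, was matched to no row and was not analysed here. All 53 passed the filter on low counts in every fit. By role, 4 are subunits of RNA polymerase I, 3 belong to the core of box C/D small nucleolar ribonucleoproteins (snoRNPs), 4 to the core of box H/ACA snoRNPs, 5 are general nucleolar proteins, 19 act on the small ribosomal subunit and 18 on the large one. The rule goes by name and uses no measured value, though the list was drawn up with earlier results of these data known.

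Ribosome biogenesis begins in the nucleolus, where RNA polymerase I transcribes the ribosomal RNA precursor. Box C/D snoRNPs methylate this RNA and box H/ACA snoRNPs convert some of its uridines to pseudouridine, while processing factors, helicases and GTPases cut, fold and export the pre-ribosomal particles of both subunits. The pathway is known as a target of mTOR, the kinase that rapamycin inhibits, and cells that grow usually transcribe its genes together.

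The libraries came from *rpe65a*:nfsB-eGFP larvae (transgenic fish crossed to AB), in which the *rpe65a* promoter drives a fusion of nitroreductase and eGFP in RPE, so that metronidazole (MTZ) is turned into a toxin in those cells. All larvae received PTU, a melanin synthesis inhibitor. MTZ+ larvae were given MTZ from 5 days post-fertilization (dpf) and MTZ- larvae were not, and both were kept in rapamycin or in its vehicle DMSO from 4dpf. eGFP+ cells, at most 1000 a library from about 80 eyes of 40 larvae, were sorted at 2 days post-injury (2dpi, 7dpf) or 4dpi (9dpf). There are thus 8 groups, MTZ- and MTZ+ larvae with DMSO or with rapamycin at each of both times, with 3 libraries each and 24 in all. Since every library is a pool of larvae, p-values measure the spread between pools. At 4dpi, the MTZ+ DMSO and MTZ+ rapamycin libraries of replicate 2 carry descriptions whose letters are exchanged relative to the other replicates. The titles were followed. By *ddx21* and the Müller glia markers these libraries lay with the groups of their titles. *ddx21* read 50.4 CPM (counts scaled to the size of the library) in the library titled DMSO and 243 CPM in that titled rapamycin. The other replicates read at most 53.2 and at least 184 CPM. The Müller glia markers, listed for this work, were *glula*, *glulb*, *gfap*, *rlbp1a*, *slc1a3b*, *apoeb*, *aqp1a.1*, *fabp7a* and *her4.1*. They summed to 41195 and 2592 CPM, against at least 24552 and at most 7036 CPM. By the RPE markers the library titled rapamycin did not lie with its group. They summed to 25130 CPM in the library titled DMSO and to 18652 CPM in that titled rapamycin. The other replicates held 46123 and 27860 CPM with DMSO and 80068 and 45283 CPM with rapamycin. Both the marker sums and *ddx21* are outcomes of the same comparison, and the results that rest on these libraries are also given without them.

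Totals ran from 20607731 to 37189527 counts a library, and the smallest count of any member in any library was 14 (*heatr1*). The 9 RPE marker genes summed to 69057 to 118682 CPM in the MTZ- libraries at 2dpi and to 58322 to 80256 CPM at 4dpi, and to 16042 to 80068 CPM in the MTZ+ libraries, with none of the 9 at 0 in all libraries of a group. Markers of Müller glia, 9 genes, summed to 2592 to 41195 CPM over all libraries and leukocyte markers, 11 genes, to at most 168 CPM. With ablation and DMSO at 2dpi, log2 fold changes of the Müller glia list ran from -1.59 (*her4.1*) to 4.69 (*apoeb*). The paper lists *apoeb* and *aqp1a.1* among genes lower with rapamycin in its sorted RPE. Whether the sum follows the number of Müller glia was not tested. Photoreceptor markers, 8 genes, summed to 55 to 14359 CPM and bipolar cell markers, 9 genes, to 555 to 3033 CPM. Replicate 3 of MTZ+ rapamycin at 2dpi stood apart in genes of long and short transcripts, and its values are given with that comparison. In bulk RNA of this kind, fewer cells of a type and less RNA per cell cannot be told apart. According to the paper, MTZ ablates much of the central RPE. The eGFP+ cells of MTZ+ and MTZ- larvae may therefore differ in their place in the layer. Place and ablation cannot be told apart here.

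Most of the biogenesis factors were low in uninjured RPE, several-fold higher after ablation and, in ablated RPE at 4dpi, had higher means with rapamycin than with DMSO. The median over the 53 members was 14.8, 18.9 and 10.9 CPM (scaled by the TMM method) in the MTZ- DMSO libraries at 2dpi and 15.3, 14.9 and 12.4 CPM in MTZ- rapamycin. It was 74.6, 80.3 and 87.8 CPM in MTZ+ DMSO and 104, 94.5 and 90.8 CPM in MTZ+ rapamycin at that time. At 4dpi the same median was 18.9, 13.2 and 18.1 CPM in MTZ- DMSO, 18.7, 15.5 and 21.1 CPM in MTZ- rapamycin, 34, 50.4 and 45.3 CPM in MTZ+ DMSO and 55.9, 133 and 91 CPM in MTZ+ rapamycin. No MTZ+ library reached down to any MTZ- library in this median, and at 4dpi every rapamycin library of ablated larvae lay above every DMSO one. By group mean, 19 members were highest in MTZ+ rapamycin at 2dpi, 19 in MTZ+ rapamycin at 4dpi and 12 in MTZ+ DMSO at 2dpi, and none was highest in MTZ+ DMSO at 4dpi or in either MTZ- group at 2dpi. The members together took 0.153% to 0.216% of all counts in MTZ- libraries at 2dpi and up to 1.35% in MTZ+ rapamycin replicate 2 at 4dpi.

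**Figure D1:**
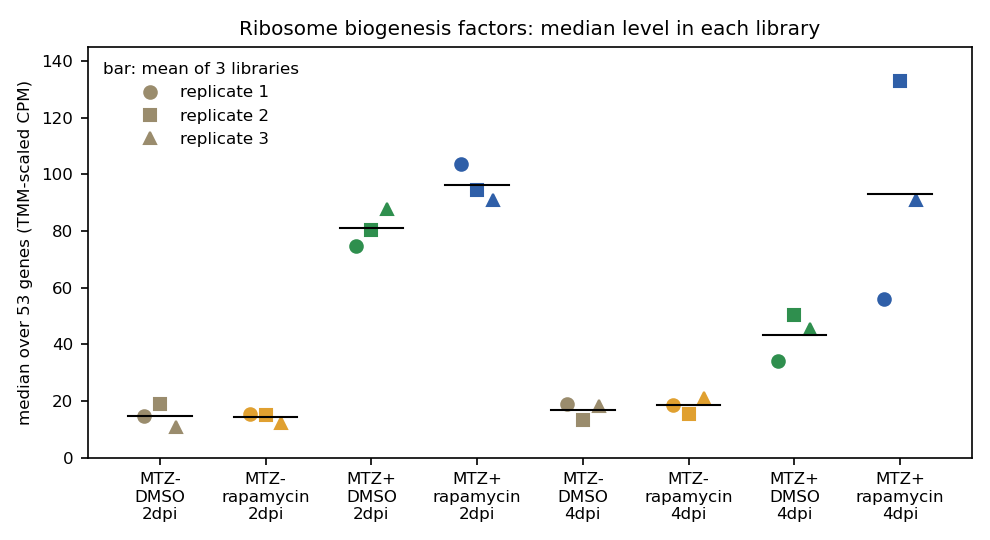
Median level of the 53 ribosome biogenesis factors in each of 24 libraries, on a linear axis of TMM-scaled CPM from 0. Points are libraries, marked by replicate number, and bars are group means. The MTZ+ DMSO libraries at 4dpi (34.0 to 50.4 CPM) lie between the MTZ- libraries and the other MTZ+ libraries, and MTZ+ rapamycin at 4dpi spreads most, from 55.9 to 132.8 CPM.

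Compared per transcript length, the leading members differed between intact and ablated RPE. In MTZ- DMSO RPE at 2dpi the highest member was *nsa2*, an assembly factor of the large subunit, at 597 ± 71.6 TPM (a level scaled by transcript length; SD, n = 3), followed by *gtpbp4*, a GTPase of the same particle, at 165 ± 28.6 TPM. *npm1a*, which encodes nucleophosmin, ranked 8 of 53 there at 63 ± 48.4 TPM. After ablation with DMSO at 2dpi *npm1a* ranked 1 at 1581 ± 254 TPM and *fbl*, the snoRNP methyltransferase fibrillarin, ranked 2 at 684 ± 43.5 TPM, while *nsa2* stood at 431 ± 28.1 TPM. *utp20*, a large scaffold of the small subunit processome, was lowest in every group, between 0.337 ± 0.0463 TPM and 5.62 ± 3.66 TPM.

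**Figure D2:**
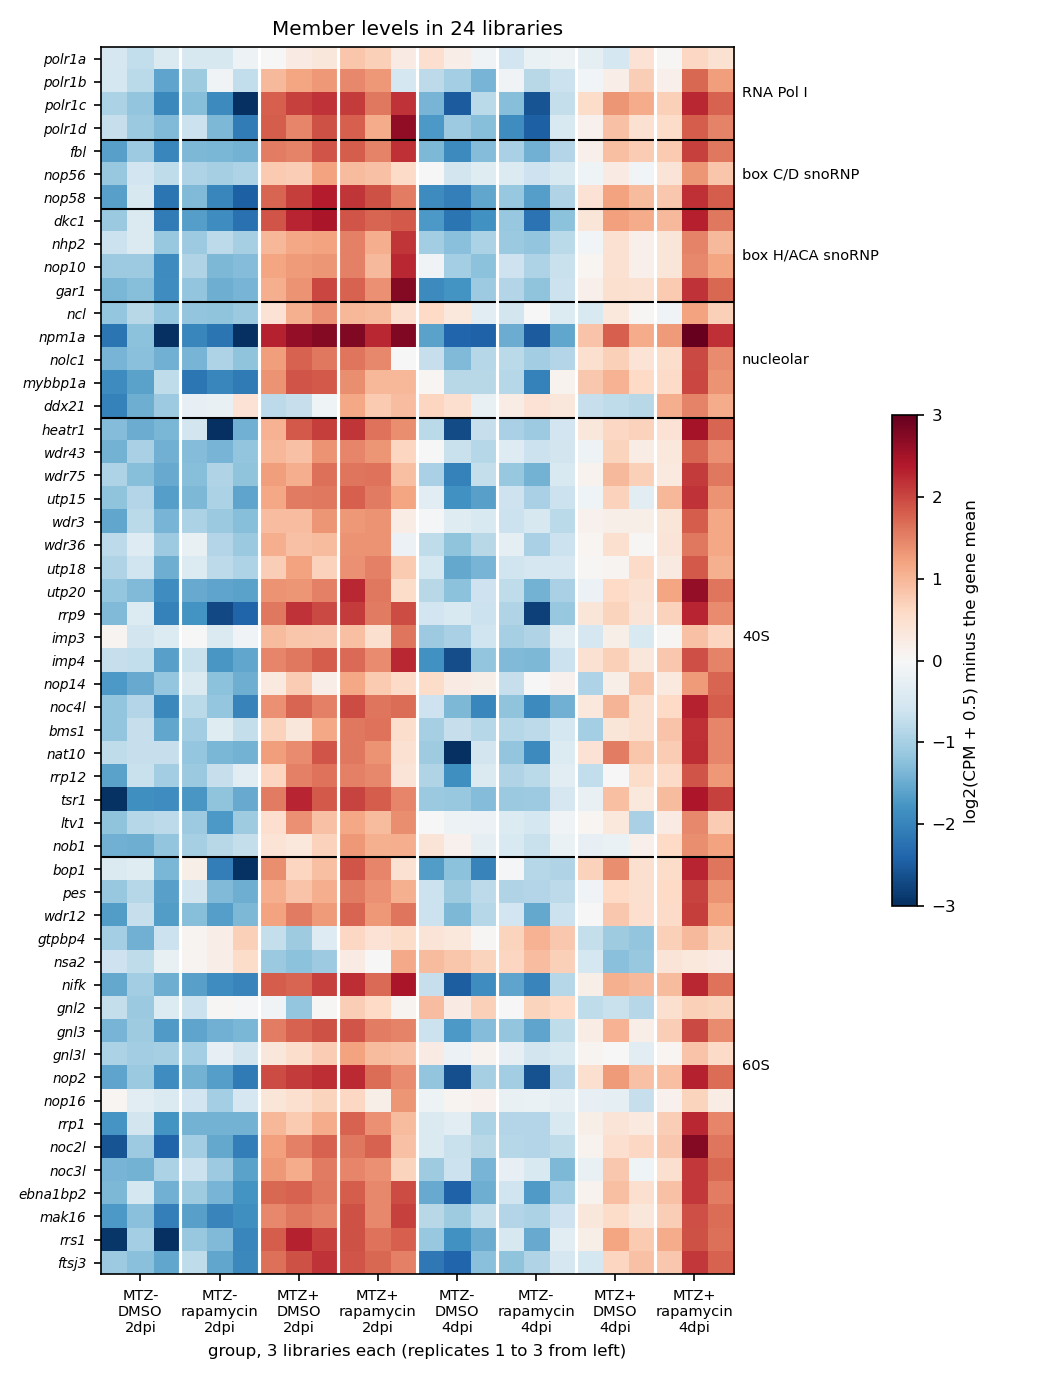
Levels of 53 ribosome biogenesis factors (rows, ordered by role) in 24 libraries (columns, by group), as log2(CPM + 0.5) minus the mean of the gene over all libraries. Most rows are blue in MTZ- groups and red in MTZ+ groups, and *ddx21*, *gtpbp4*, *nsa2* and *gnl2* are the rows called lower after ablation with DMSO at 4dpi.

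Ablation alone, MTZ+ DMSO against MTZ- DMSO at 2dpi, raised 48 of the 53 members and lowered none by the edgeR quasi-likelihood test at an adjusted p under 0.05. Over all genes tested in this comparison 13.3% were called higher and 11.8% lower. The median log2 fold change of the members was 2.62, against 0.04 over all genes, and in 50 of 53 members all 3 ablated libraries lay above all 3 intact ones, as they did in 21.7% of all genes. Between libraries whose labels carry the same date (each replicate number of a time point has one, and what it marks is not stated) the median difference was 2.37, 2.29 and 2.89 for replicates 1 to 3. In the same comparison all 9 RPE markers were called lower and 4 of 9 Müller glia markers higher, and their part in the result was not tested.

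All 4 polymerase I subunits rose at 2dpi. *polr1c* and *polr1d*, which RNA polymerase III shares, rose by 3.41 ± 0.45 (SE) and 2.85 ± 0.45 on the log2 scale, more than *polr1a*, the largest subunit of polymerase I, at 0.80 ± 0.23. The *polr1c* libraries read 9.55, 8.1 and 4.59 CPM in MTZ- DMSO and 67.2, 80.3 and 86.5 CPM in MTZ+ DMSO. These groups stood far apart.

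All 3 box C/D and all 4 box H/ACA core genes rose as well. *fbl* measured 51.1, 74.5 and 40.5 CPM in intact and 461, 451 and 589 CPM in ablated RPE, with a log2 fold change of 3.20 ± 0.28. *dkc1*, the pseudouridine synthase dyskerin, measured 24.1, 39.3 and 12.1 CPM and 199, 259 and 294 CPM, with a log2 fold change of 3.33 ± 0.38. In both genes the highest intact library was replicate 2, still well below every ablated library. *nop58* (3.37) and *gar1* (3.14) changed by similar amounts on the log2 scale, and *nop56* (1.76) and *nhp2* (1.87) by less.

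Among the nucleolar proteins *npm1a* showed the largest log2 fold change of all members. It lies on chromosome 10 of GRCz11 (22034477 to 22045119). Its libraries read 47.2, 92.6 and 21.7 CPM in MTZ- DMSO and 1076, 1352 and 1464 CPM in MTZ+ DMSO. The lowest ablated library was more than 10-fold above the highest intact one, and the log2 fold change was 4.60 ± 0.50 (adjusted p = 4.97e-05, the edgeR quasi-likelihood test with Benjamini-Hochberg adjustment). *nolc1*, which accompanies snoRNPs in the nucleolus, rose by 2.95 ± 0.35, *mybbp1a* by 3.22 ± 0.35 and *ncl*, nucleolin, by 2.08 ± 0.25 on the log2 scale. The helicase gene *ddx21* was the smallest of the 5 at 1.01 ± 0.28 (adjusted p = 0.0196, the same test).

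All 19 small subunit factors rose at 2dpi, with log2 fold changes from 1.17 (*imp3*) to 4.20 (*tsr1*). *tsr1*, a late maturation factor of the small subunit, measured 2.77, 6.69 and 6.57 CPM in intact and 74.6, 124 and 91.2 CPM in ablated RPE. *nat10*, the acetyltransferase of small subunit rRNA, measured 9.32, 9.88 and 9.93 CPM and 39.4, 44.1 and 61.2 CPM. *nob1*, the endonuclease that trims the rRNA of the small subunit to its mature end, measured 19.3, 19.1 and 23.1 CPM and 70.9, 66.5 and 86.4 CPM. In all of these the groups were apart, and the log2 fold changes were 4.20 ± 0.36, 2.34 ± 0.30 and 1.89 ± 0.19.

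The large subunit factors split. Of 18, 13 rose, among them *gnl3* (nucleostemin, a nucleolar GTPase), which had the smallest p of all members. Its libraries read 27.8, 35.1 and 22.5 CPM in MTZ- DMSO and 216, 252 and 279 CPM in MTZ+ DMSO, with a log2 fold change of 3.15 ± 0.23 (adjusted p = 1.45e-05, the edgeR quasi-likelihood test). *nop2*, an rRNA methyltransferase, measured 15.3, 21.3 and 12.4 CPM and 183, 199.8 and 217 CPM, and *rrs1*, which helps to load ribosomal RNA and proteins onto the large subunit, had the second largest log2 fold change of all members, 4.22 ± 0.57.

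The 5 members not called at 2dpi were all large subunit factors. *gtpbp4* measured 208, 155 and 269 CPM in intact and 259, 204 and 326 CPM in ablated RPE and *gnl2*, another GTPase of the large subunit particle, 50.1, 38.1 and 61.8 CPM and 76.1, 36.6 and 84.6 CPM. The groups overlapped in both genes. *nsa2* measured 361, 327 and 477 CPM and 259, 238 and 262 CPM, with every ablated library below every intact one and a log2 fold change of -0.59 ± 0.28 that did not pass (adjusted p = 0.157, the edgeR quasi-likelihood test). *nop16* (log2 fold change 0.76 ± 0.28) and *bop1*, a member of the complex it forms with *pes* and *wdr12* (1.79 ± 0.77), did not pass either, and *bop1* had the widest error of all members.

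With rapamycin present throughout, ablation at 2dpi (MTZ+ rapamycin against MTZ- rapamycin) raised 50 of 53 members and lowered none. The shares over all genes were 10.5% higher and 7.04% lower, and the median log2 fold change of the members was 2.64. *nifk*, a nucleolar protein that binds Ki-67, had the smallest p, with 9.63, 8.12 and 7.45 CPM in MTZ- rapamycin and 146, 101 and 171 CPM in MTZ+ rapamycin and a log2 fold change of 4.07 ± 0.26. *gtpbp4*, *nsa2* and *gnl2* were again not called, at 0.20 ± 0.26, 0.28 ± 0.28 and 0.71 ± 0.32. The test of the difference between both rapamycin effects at 2dpi, which is equally the difference between both ablation effects, called none of the members by the edgeR quasi-likelihood test (2 higher and 0 lower at an unadjusted p under 0.05, 0 by DESeq2). It called 0.0171% of all genes higher and 0.0057% lower, with 4.23% and 3.41% at the unadjusted p and 0.378% higher by DESeq2.

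At 4dpi members were called in both directions after ablation with DMSO. Of 53 members 34 were higher and 4 lower in MTZ+ DMSO than in MTZ- DMSO, against 17.7% and 12.2% of all genes. The median log2 fold change of the members was 1.37 while that of all genes was 0.27, a shift that the member values include. Within label dates the member median was 0.75, 1.70 and 1.35 for replicates 1 to 3. Of the markers, 4 of 9 for RPE were called lower and 6 of 9 for Müller glia higher, and their part in the result was not tested. Without replicate 2 of MTZ+ DMSO, 24 were called higher and 4 lower. All 4 box H/ACA genes, 3 of 4 polymerase I subunits, 2 of 3 box C/D genes, 10 of 19 small subunit factors and 13 of 18 large subunit factors were called higher. *npm1a* remained the largest at 3.48 ± 0.49, with 71.3, 41.6 and 39.99 CPM in intact and 398, 753 and 472 CPM in ablated RPE. *nop58* had the smallest p among the members called higher, with 18.3, 16.1 and 23.2 CPM and 93.3, 160.1 and 134 CPM and a log2 fold change of 2.82 ± 0.35.

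The 4 members called lower after ablation at 4dpi were *ddx21*, *gtpbp4*, *nsa2* and *gnl2*. *nsa2* measured 1080.0, 999 and 883 CPM in MTZ- DMSO and 389, 235 and 252 CPM in MTZ+ DMSO. *gtpbp4* measured 556, 529 and 435 CPM and 257, 203 and 187 CPM. *gnl2* measured 157, 98.1 and 135 CPM and 48.1, 51.4 and 45.3 CPM. *ddx21*, the helicase, measured 135, 123 and 74.2 CPM and 53.2, 50.4 and 48.4 CPM. No library of one group reached into the other in any of the 4 genes. Their log2 fold changes were -1.68 ± 0.21, -1.15 ± 0.19, -1.35 ± 0.21 and -1.05 ± 0.21, with adjusted p of 0.000489, 0.00149, 0.00116 and 0.00446 by the edgeR quasi-likelihood test.

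On GRCz11 *ddx21* lies on chromosome 13 (319575 to 330004), *gtpbp4* on chromosome 2 (42361373 to 42375275), *nsa2* on chromosome 21 (3789839 to 3796461) and *gnl2* on chromosome 16 (33902006 to 33925877). The gene models of *nsa2* and *gnl2* overlap those of *spout1* and *dnali1* on the opposite strand. In all, the spans of 13 members from start to end overlap that of another gene (the others are *nob1*, *mak16*, *nop56*, *nop58*, *nat10*, *gnl3*, *bop1*, *wdr75*, *utp20*, *rrp9* and *imp3*). Whether exons overlap was not examined, and the sources used here do not state whether reads were counted by strand. Reads of the partner gene may therefore be among those of some of these members.

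The change in the ablation effect from 2dpi to 4dpi with DMSO was tested itself, over all 24 libraries. It was lower at 4dpi in 13 members and higher in none, against 1.2% and 1.53% of all genes, and the median difference was -1.25. *nob1* had the smallest p (-2.07 ± 0.31, adjusted p = 0.00273, the edgeR quasi-likelihood test), and *tsr1* the largest difference (-2.55 ± 0.51). The call also held for *noc2l*, *ncl*, *ddx21*, *ltv1*, *mak16*, *wdr3*, *gnl2*, *gnl3l*, *wdr43*, *gtpbp4* and *nop56*. The count was 7 without replicate 3 of MTZ+ DMSO at 2dpi, 7 without replicate 1 of MTZ- DMSO at 4dpi, 8 without replicate 1 of MTZ- DMSO at 2dpi, and 21 by DESeq2, which called 3.29% of all genes lower. It was 13 without replicate 2 of MTZ+ DMSO at 4dpi. Time and label date cannot be told apart, because no date holds libraries of both times.

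Both sides of this change can be read from the levels. In MTZ- DMSO RPE 8 members were higher at 4dpi than at 2dpi and none lower, against 3.71% and 5.52% of all genes. *ddx21* had the smallest p, from 20.8, 31.1 and 40.4 CPM to 135, 123 and 74.2 CPM, with a log2 fold change of 1.85 ± 0.27. The others were *nob1*, *gtpbp4*, *nsa2*, *gnl2*, *gnl3l*, *ncl* and *nop14*, with log2 fold changes from 1.09 to 2.12. The count was 13 without replicate 2 of MTZ- DMSO at 2dpi.

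In MTZ+ DMSO RPE, 52 of 53 members had a lower value at 4dpi than at 2dpi, with a median log2 fold change of -1.002. Only *mak16*, a large subunit factor, was called, at 125, 138 and 129 CPM and then 57.9, 66.6 and 57.6 CPM, a log2 fold change of -1.11 ± 0.25 (adjusted p = 0.0477, the edgeR quasi-likelihood test). Over all genes 0.275% were called lower and 0.327% higher. At an unadjusted p under 0.05 it was 37 lower and 0 higher, against 8.35% and 8.04% of all genes, and DESeq2 called 17 lower, against 2.75%. The call of *mak16* was lost without each of the 6 libraries of this comparison in turn (adjusted p from 0.0581 to 0.158). The count of members called was then 0, except without replicate 2 of MTZ+ DMSO at 4dpi, when it was 2. It was also 0 with median-of-ratios factors and in a fit of the compared groups only.

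**Figure D3:**
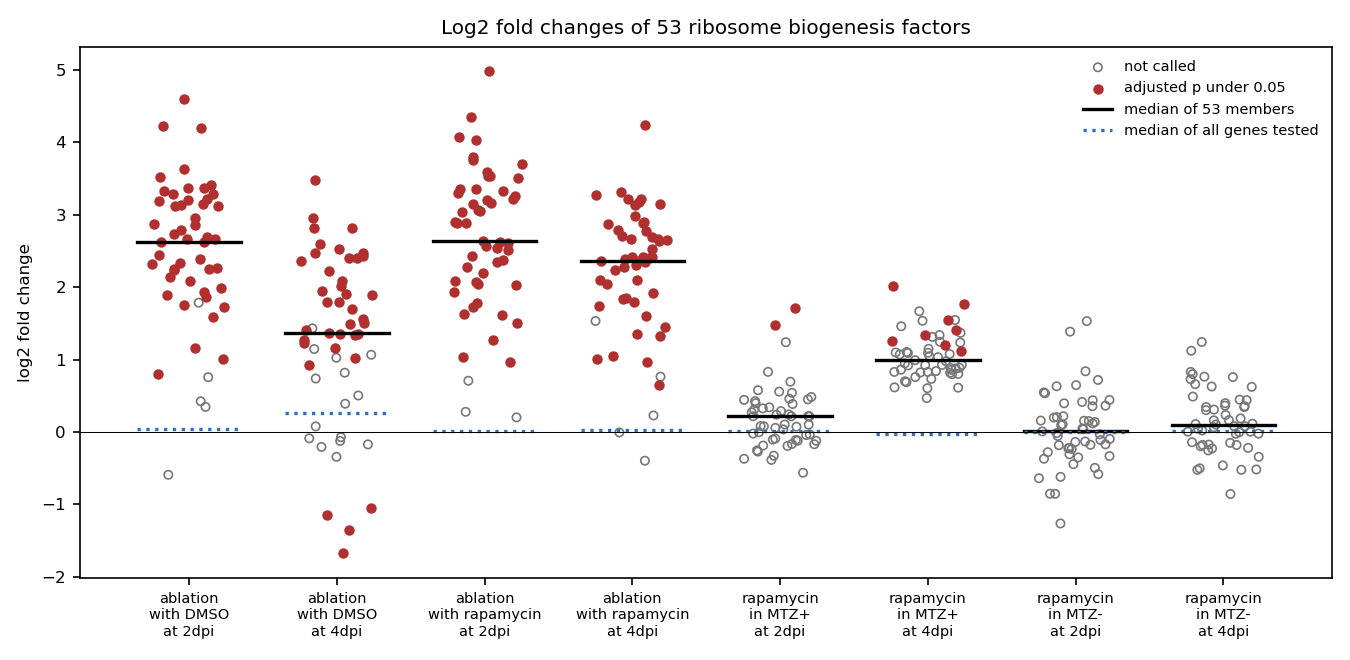
Log2 fold changes of 53 ribosome biogenesis factors in 8 comparisons, each point a gene, filled where the adjusted p was under 0.05. Solid bars are medians of the members and dotted bars medians of all genes tested. The member median is 2.62 and 1.37 for ablation with DMSO at 2dpi and 4dpi, and 0.22 and 0.99 for rapamycin in MTZ+ at the same times. Ablation and rapamycin comparisons of one time point share groups.

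Rapamycin in ablated larvae at 4dpi, the MTZ+ rapamycin against MTZ+ DMSO comparison, went with higher levels across the whole list. All 53 members had a higher mean, 8 were called higher and none lower by the edgeR quasi-likelihood test, against 1.63% and 1.88% of all genes. At an unadjusted p under 0.05, 40 members were higher, against 9.66% of all genes higher and 9.51% lower. The median log2 fold change was 0.99 for the members, from 0.47 (*polr1a*) to 2.02 (*ddx21*), and -0.02 for all genes. Within label dates the median difference was 0.48 (50 of 53 higher), 1.23 (53 of 53) and 1.01 (53 of 53) for replicates 1 to 3.

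The number called depended on single libraries while the direction did not. For fits that leave out libraries, the share of all genes called is not given here. Their counts are therefore not read as particular to the members. It was 23 without replicate 1 of MTZ+ rapamycin, the lowest of its group, and 4 without replicate 2, the highest. It was 4 without replicate 3 of MTZ+ rapamycin, 4, 3 and 4 without replicates 1, 2 and 3 of MTZ+ DMSO, 2 without replicate 2 of both groups, and 20 by DESeq2, which called 4.39% of all genes higher. In each of these fits all 53 members kept a higher value with rapamycin, and the median log2 fold change was 0.65 without replicate 2 of MTZ+ rapamycin and 0.83 without replicate 2 of both groups. In 19 of 53 members all 3 rapamycin libraries lay above all 3 DMSO libraries, as they did in 10.9% of all genes.

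Markers of cell types differed in the same comparison. RPE markers summed to 46123, 25130.1 and 27860.2 CPM in MTZ+ DMSO replicates 1 to 3 and to 80068, 18652 and 45283 CPM in MTZ+ rapamycin, in which the library with the highest RPE sum (replicate 1) had the lowest median of the members and that with the lowest RPE sum (replicate 2) the highest. Müller glia markers summed to 28547, 41195 and 24552 CPM in MTZ+ DMSO and to 4597, 2592 and 7036 CPM in MTZ+ rapamycin, and 4 of 9 were called lower with rapamycin. Leukocyte markers (11 genes) summed to 7.46 to 98.6 CPM in MTZ+ DMSO and to 0.319 to 168 CPM in MTZ+ rapamycin. Photoreceptor markers (8 genes) summed to 1347, 458 and 600 CPM in MTZ+ DMSO and to 241, 409 and 319 CPM in MTZ+ rapamycin, without overlap. The part of these markers in the result was not tested.

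Of the polymerase I subunits none was called. *polr1b*, part of the catalytic core, measured 15.9, 19.3 and 28.5 CPM in MTZ+ DMSO and 18.7, 56.1 and 40.4 CPM in MTZ+ rapamycin at 4dpi. *polr1d* measured 17, 28.9 and 21.6 CPM and 23.1, 56.5 and 44.5 CPM, and *polr1c* 27.9, 48.3 and 41.9 CPM and 31.7, 93 and 65.6 CPM. The groups overlapped in each, through rapamycin replicate 1. Their log2 fold changes were 0.86 ± 0.38, 0.88 ± 0.49 and 0.69 ± 0.55.

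Of the snoRNP core genes, none of the 3 of box C/D and none of the 4 of box H/ACA was called. *nop56* measured 147, 191 and 151 CPM with DMSO and 210.2, 402 and 286 CPM with rapamycin, and *gar1* 19.9, 24.8 and 24.6 CPM and 30.7, 81.9 and 59.3 CPM. In both genes the groups were apart, with log2 fold changes of 0.88 ± 0.24 (adjusted p = 0.065) and 1.31 ± 0.34 (adjusted p = 0.0603) by the edgeR quasi-likelihood test. *fbl* measured 178, 300.0 and 271 CPM and 277, 665 and 477 CPM, *nop58* 93.3, 160.1 and 134 CPM and 121, 317 and 245 CPM, and *dkc1* 68.8, 126 and 115 CPM and 105, 272 and 161 CPM. Rapamycin replicate 1 lay within the DMSO range in these 3 genes. *nhp2*, a small core protein of box H/ACA snoRNPs, measured 65, 94.8 and 77.7 CPM and 89.5, 195 and 136 CPM, with a log2 fold change of 0.83 ± 0.25 and a similar overlap. Without rapamycin replicate 1, *nop56*, *fbl*, *nop58*, *gar1* and *nhp2* passed, with adjusted p from 0.0166 to 0.0458 by the same test.

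Among the nucleolar proteins *ddx21* was called. It measured 53.2, 50.4 and 48.4 CPM in MTZ+ DMSO and 184, 243 and 188 CPM in MTZ+ rapamycin. The 3 DMSO libraries were nearly alike and every rapamycin library was more than 3-fold above them, with a log2 fold change of 2.02 ± 0.22 (adjusted p = 0.00477, the edgeR quasi-likelihood test). *npm1a* measured 398, 753 and 472 CPM and 529, 1935 and 1002 CPM (1.09 ± 0.45), *nolc1* 90.1, 107 and 86.4 CPM and 94.3, 256 and 174 CPM (0.89 ± 0.30), and *mybbp1a* 18.8, 22 and 16.1 CPM and 15.8, 43.7 and 27.5 CPM (0.61 ± 0.52). These 3 genes were not called, and rapamycin replicate 1 lay inside or below the DMSO range of each.

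Of the 19 small subunit factors, *nob1* and *tsr1* were called. *nob1* measured 44.8, 46.3 and 59.4 CPM with DMSO and 80.5, 141 and 123 CPM with rapamycin, a log2 fold change of 1.199 ± 0.24 (adjusted p = 0.0235). *tsr1* measured 21.5, 47.4 and 31.4 CPM and 49, 137 and 107 CPM, a log2 fold change of 1.54 ± 0.36 (adjusted p = 0.0411), both by the edgeR quasi-likelihood test. The groups were apart in both genes, narrowly so in *tsr1*. Both calls were lost when any 1 of the 3 MTZ+ DMSO libraries or rapamycin replicate 2 or 3 was left out (adjusted p from 0.0520 to 0.0887 for *nob1* and from 0.0519 to 0.125 for *tsr1*), and without replicate 2 of both groups. *nat10* had the largest p of the group, with 22.2, 47.8 and 29.6 CPM and 28, 77.4 and 46 CPM, and overlapped widely (0.61 ± 0.74). The remaining 16 ranged from 0.80 (*imp3*) to 1.67 (*utp20*) on the log2 scale.

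Of the 18 large subunit factors 5 were called, *gtpbp4*, *gnl2*, *nsa2*, *rrp1* and *mak16*. *gtpbp4* measured 257, 203 and 187 CPM with DMSO and 699, 834 and 672 CPM with rapamycin. *gnl2* measured 48.1, 51.4 and 45.3 CPM and 114, 136 and 131 CPM. *nsa2* measured 389, 235 and 252 CPM and 728, 701 and 657 CPM. In these 3 genes the rapamycin libraries were close to each other and far from the DMSO ones, and replicate 2 did not stand out. The log2 fold changes were 1.77 ± 0.19 (adjusted p = 0.00477), 1.40 ± 0.21 (adjusted p = 0.00776) and 1.26 ± 0.21 (adjusted p = 0.0112) by the edgeR quasi-likelihood test. The calls of *ddx21*, *gtpbp4* and *gnl2* held without each of the 6 MTZ+ libraries in turn. *nsa2* missed the threshold without replicate 2 of MTZ+ DMSO (adjusted p = 0.0510), and without replicate 2 of both groups *gnl2* and *nsa2* did (adjusted p = 0.0695 and 0.0863).

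*mak16* measured 57.9, 66.6 and 57.6 CPM in MTZ+ DMSO and 76.2, 174 and 146 CPM in MTZ+ rapamycin at 4dpi, and *rrp1*, a factor of large subunit rRNA processing, measured 42.3, 48.7 and 45.9 CPM and 62.7, 182 and 104 CPM. The groups were apart in both genes, and the log2 fold changes were 1.12 ± 0.25 (adjusted p = 0.0354) and 1.35 ± 0.32 (adjusted p = 0.0427) by the edgeR quasi-likelihood test. Both calls were lost when any 1 of the 3 MTZ+ DMSO libraries or rapamycin replicate 2 or 3 was left out (adjusted p from 0.0887 to 0.113 for *mak16* and from 0.0884 to 0.121 for *rrp1*). They were also lost with the replicate block (adjusted p = 0.0505 and 0.0558) and without replicate 2 of both groups (adjusted p = 0.191 and 0.209). *nop2* had the largest p of the large subunit factors, with 64.7, 114 and 86 CPM and 87.4, 231 and 149.8 CPM. *gnl3* measured 86.9, 153 and 85.2 CPM and 124, 291 and 199 CPM, and *nifk* 34.9, 65.4 and 61.4 CPM and 59.7, 149 and 97.4 CPM. Rapamycin replicate 1 lay among the DMSO libraries in *nop2*, *gnl3* and *nifk*.

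**Figure D4:**
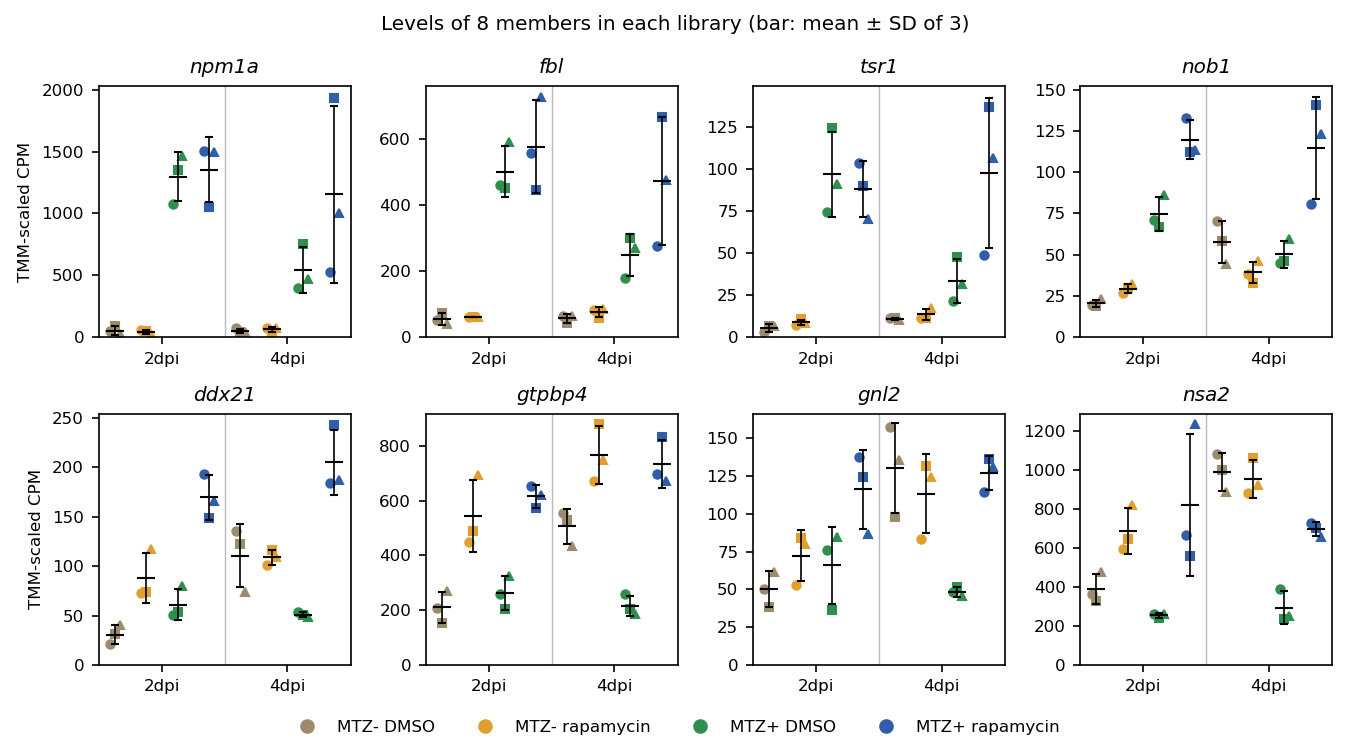
TMM-scaled CPM of 8 members in each of 24 libraries on linear axes from 0, 4 groups at 2dpi (left of the grey line) and 4 at 4dpi, with mean and SD of 3 libraries. *npm1a*, *fbl* and *tsr1* are low in every MTZ- library, whereas *gtpbp4*, *gnl2* and *nsa2* are higher in MTZ- DMSO than in MTZ+ DMSO at 4dpi. The *gtpbp4* libraries of MTZ+ rapamycin (672 to 834 CPM) and MTZ- rapamycin (673 to 882 CPM) overlap.

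In intact RPE at 4dpi, MTZ- rapamycin against MTZ- DMSO, the edgeR quasi-likelihood test called none of the members in either direction (4 higher and 1 lower at an unadjusted p under 0.05, 1 by DESeq2). Over all genes 2.28% were called higher and 0.331% lower, 12.5% and 5.02% at the unadjusted p, and 7.58% higher by DESeq2. The median log2 fold change was 0.10, from -0.86 (*rrp9*) to 1.24 (*bop1*). *gtpbp4* had the smallest p, with 556, 529 and 435 CPM and 673, 882 and 749.7 CPM and a log2 fold change of 0.63 ± 0.18 (adjusted p = 0.102). Its rapamycin libraries lay above the DMSO ones. *ddx21*, at 135, 123 and 74.2 CPM and 102, 116 and 109 CPM, overlapped.

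The difference between the rapamycin effects of ablated and intact larvae at 4dpi was called for 5 members, all more positive in ablated larvae, and for none in the other direction, against 0.605% and 2.86% of all genes. They were *ddx21* (2.02), *nob1* (1.72), *gnl2* (1.58), *nsa2* (1.28) and *gtpbp4* (1.14 on the log2 scale), with adjusted p of 0.00968, 0.0226, 0.0167, 0.0374 and 0.0376 by the edgeR quasi-likelihood test. The median difference was 0.89, positive in 52 of 53 members. The count was 9 without replicate 1 of MTZ+ rapamycin. It was 3 without replicate 2 and 2 without replicate 3 of that group, and 2 and 3 without replicates 2 and 3 of MTZ+ DMSO. It was 2 and 3 without replicates 1 and 2 of MTZ- DMSO, and 2 and 3 without replicates 1 and 3 of MTZ- rapamycin. It was 1 without replicate 2 of both MTZ+ groups and 12 by DESeq2, which called 2.58% of all genes more positive. *ddx21* and *gnl2* kept their calls without each of the 12 libraries in turn, whereas *nob1*, *nsa2* and *gtpbp4* lost them in some of these fits (adjusted p up to 0.0646, 0.0968 and 0.105). In intact larvae *nob1* measured 70.1, 58.6 and 44.2 CPM with DMSO and 38.6, 33.1 and 46.1 CPM with rapamycin. These overlap, with a log2 fold change of -0.52 ± 0.24 that did not pass.

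Ablation under rapamycin at 4dpi raised 48 of 53 members and lowered none, against 11.4% and 8.36% of all genes, with a median log2 fold change of 2.36. Without replicate 2 of MTZ+ rapamycin, 41 were called higher. This comparison uses the same MTZ+ rapamycin libraries as the rapamycin comparison. *mak16* had the smallest p, from 24.3, 23.4 and 29.4 CPM in MTZ- rapamycin to 76.2, 174 and 146 CPM in MTZ+ rapamycin (2.41 ± 0.26). The members not called were *polr1a* (0.76), *nop14* (1.53), *gtpbp4* (-0.01), *nsa2* (-0.40) and *gnl2* (0.23).

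At 2dpi rapamycin in ablated larvae changed few members. *nsa2* and *ddx21* were called higher and none was lower in MTZ+ rapamycin than in MTZ+ DMSO, against 0.371% and 0.177% of all genes, and 34 of 53 had a higher value (median log2 fold change 0.22, all genes 0.02). *nsa2* measured 259, 238 and 262 CPM with DMSO and 666, 559 and 1234 CPM with rapamycin, and *ddx21* 50.1, 53.7 and 79.5 CPM and 194, 149 and 166 CPM. In both genes the groups were far apart, with log2 fold changes of 1.71 ± 0.29 (adjusted p = 0.0366) and 1.48 ± 0.29 (adjusted p = 0.0497) by the edgeR quasi-likelihood test. *gtpbp4*, at 259, 204 and 326 CPM and 655, 574 and 619 CPM, was as clearly apart but just missed the threshold (1.24 ± 0.26, adjusted p = 0.0544, the same test).

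One library of this comparison, replicate 3 of MTZ+ rapamycin at 2dpi, stood apart. *polr1b* measured 46.5, 42 and 11.5 CPM in replicates 1 to 3 of that group, *wdr36*, a small subunit processome protein, 110.2, 109 and 37.7 CPM and *utp20* 31.7, 19.6 and 9.26 CPM, whereas *nop10*, the smallest box H/ACA core protein, measured 160.0, 109.7 and 266 CPM. Replicate 3 was the lowest in the first 3 genes and the highest in *nop10*. Set against the mean of the other replicates, its members with longer transcripts (26 of 53, length taken as counts over TPM) had a median of -0.65 on the log2 scale and those with shorter transcripts 0.15, a difference of -0.80. Over all genes tested the difference was -0.36. In the 21 libraries of the other groups it ran from -0.29 to 0.37 for the members and from -0.10 to 0.11 for all genes. Without this library 1 member was called higher with rapamycin, 35 of 53 had a higher value and the median log2 fold change was 0.18, and ablation with rapamycin at 2dpi raised 49 members (median 2.85). The part of transcript length in these results was not tested.

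The 2 calls at 2dpi rested on the whole set of libraries. None was left without replicate 1, 2 or 3 of MTZ+ DMSO, 1 without replicate 1, 2 or 3 of MTZ+ rapamycin, none in a fit of the compared groups only, and 4 by DESeq2, which called 2.85% of all genes higher. For *nsa2* the adjusted p without a DMSO library ran from 0.0723 to 0.149, and for *ddx21* without any 1 library of the comparison from 0.0614 to 0.190. Müller glia markers summed to 17688, 21432 and 12669 CPM in MTZ+ DMSO and 5064, 5802 and 6317 CPM in MTZ+ rapamycin, RPE markers to 22471, 16042 and 31594 CPM and 38552, 59234 and 67913 CPM, and their part in the result was not tested. Within label dates the member median was 0.47, -0.06 and -0.10 for replicates 1 to 3.

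In intact larvae at 2dpi none of the members was called with rapamycin by the edgeR quasi-likelihood test (5 higher and 3 lower at an unadjusted p under 0.05, 2 by DESeq2). Over all genes 0.0855% were called higher and 0% lower, 4.45% and 3.1% at the unadjusted p, and 1.1% higher by DESeq2. *gtpbp4* measured 208, 155 and 269 CPM and 449, 491 and 694 CPM and *ddx21* 20.8, 31.1 and 40.4 CPM and 73, 74.2 and 117 CPM. Every rapamycin library lay above every DMSO one in both genes, with log2 fold changes of 1.39 ± 0.26 and 1.53 ± 0.29 and an adjusted p of 0.0748 for each. With the replicate number as a block 2 members were called, *gtpbp4* among them at a log2 fold change of 1.40 (adjusted p = 0.0358, the edgeR quasi-likelihood test). *nsa2* measured 361, 327 and 477 CPM with DMSO and 594, 645 and 820 CPM with rapamycin, also without overlap. In all, the rapamycin libraries lay wholly above the DMSO ones in 5 of 53 members and wholly below in 4. The share over all genes is not given for this count. Over all 53 members the median log2 fold change was 0.01.

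A test over all 24 libraries asked whether the rapamycin effect of ablated larvae was the same at 2dpi and 4dpi. The edgeR quasi-likelihood test called none of the members (13 higher and 0 lower at an unadjusted p under 0.05, 0 by DESeq2), and 0% of all genes higher and 0.0106% lower (3.72% and 5.73% at the unadjusted p, 0.258% higher by DESeq2). The difference, 4dpi minus 2dpi, had a median of 0.90 and was positive in 52 of 53 members. Without replicate 2 of MTZ+ rapamycin at 4dpi the median was 0.59. *tsr1* had the smallest p (1.68 ± 0.51, adjusted p = 0.334). The larger rapamycin effect at 4dpi is therefore not shown to differ from that at 2dpi for any single member.

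Genes of the same pathway outside the list, also chosen with earlier results of these data known, went mostly in the same direction. Of 90 other ribosome biogenesis factors tested, 79 rose and none fell with ablation at 2dpi with DMSO, against 13.3% and 11.8% of all genes. The median log2 fold change of these factors was 2.20, and 53 of them rose and 3 fell at 4dpi, against 17.7% and 12.2%. In that comparison at 2dpi the highest of them was *mrto4*, a factor that helps to build the stalk of the large subunit (4.23), and the lowest *efl1*, a GTPase of late large subunit maturation (0.15). Rapamycin in ablated larvae at 4dpi raised 11 of 90 and lowered none, against 1.63% and 1.88% of all genes, with 89 of 90 higher and a median of 0.96. The highest was *lyar* (1.78, adjusted p = 0.0104, the edgeR quasi-likelihood test).

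Of 11 further polymerase I subunits and initiation factors, 8 rose and 1 fell with ablation at 2dpi, against 13.3% and 11.8% of all genes. The log2 fold changes of these factors ran from -1.01 (*ubtfl*) to 4.18 (*twistnb*). None of them was called with rapamycin at 4dpi in ablated larvae. At an unadjusted p under 0.05 it was 5 higher and 0 lower, against 9.66% and 9.51% of all genes. Of 13 subunits and cofactors of the RNA exosome, which trims pre-rRNA, 11 rose with ablation at 2dpi, against 13.3% of all genes. With rapamycin at 4dpi all 13 were higher in ablated larvae, 8 at an unadjusted p under 0.05 (9.66% of all genes) and none at the adjusted one.

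Genes of the cytosolic ribosomal proteins, the products that biogenesis factors assemble, were called with ablation about as often as other genes or less. Of 78 tested, 11 rose with ablation at 2dpi (median log2 fold change 0.54), where 13.3% of all genes did, and 6 rose and 4 fell at 4dpi (median 0.13), against 17.7% and 12.2% of all genes. Rapamycin in ablated larvae gave higher values for 77 of 78 at both times. At 2dpi the median was 0.86 and none was called (67 higher and 0 lower at an unadjusted p under 0.05, against 9.08% and 4.45% of all genes), and at 4dpi the median was 0.56 and 5 were called higher, against 1.63%. The 2dpi median was larger than that of the biogenesis factors at the same time (0.22). Without a test of that difference it is given as a value only. At 2dpi the genes summed to 39110.1, 28971 and 45066 CPM in MTZ+ DMSO and 55902, 43164 and 107477 CPM in MTZ+ rapamycin, where the groups overlapped and rapamycin replicate 3 stood highest. That library is the one that stood apart by transcript length, and the median of 0.86 includes it. The part of transcript length in that median was not tested. At 4dpi their summed level was 34155 to 50381 CPM in MTZ+ DMSO and 60292 to 69669 CPM in MTZ+ rapamycin, without overlap. In intact larvae at 2dpi it was 24702 to 28644 CPM with DMSO and 40503 to 49949 CPM with rapamycin, also without overlap. In intact larvae at 4dpi it was 39275 to 45235 CPM and 44764 to 57228 CPM, which overlap.

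Of 14 Myc family genes, transcription factors known to drive ribosome biogenesis genes and their partners, 3 rose and 1 fell with ablation at 2dpi, against 13.3% and 11.8% of all genes. At 4dpi 5 rose and none fell, against 17.7% and 12.2%. *mych* was the highest both times (4.44 and 4.44, adjusted p = 0.000198 and 0.000459, the edgeR quasi-likelihood test). With rapamycin in ablated larvae at 4dpi *mych* was again the highest, at 1.19 without a call, and the single called gene was lower, *mxd4*, a Myc antagonist (-1.57). Of 12 genes of p53 and its targets, which respond to disturbed ribosome assembly among other stresses, 7 rose and 1 fell with ablation at either time. Over all genes 13.3% rose and 11.8% fell at 2dpi, and 17.7% and 12.2% at 4dpi. With rapamycin in ablated larvae at 4dpi *sesn1*, a p53 target, fell (-2.72) and no gene of this list rose. In that comparison 1.88% of all genes fell and 1.63% rose.

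Genes of cell proliferation showed other values. Of 20 such genes the edgeR quasi-likelihood test called none with ablation at 2dpi (0 at an unadjusted p under 0.05). Over all genes 13.3% were called higher and 11.8% lower. The median log2 fold change of the 20 was -1.17. At 2dpi they summed to 185, 986 and 173 CPM in MTZ- DMSO and to 277, 522 and 195 CPM in MTZ+ DMSO. These sums overlap, with replicate 2 of MTZ- DMSO the highest, so the negative median is not read as a fall. Their summed level was 348, 309 and 318 CPM in MTZ+ DMSO and 241, 340.2 and 331 CPM in MTZ+ rapamycin at 4dpi, which overlap. With ablation at 4dpi with DMSO 13 of 20 rose, against 17.7% of all genes. The MTZ- DMSO libraries of that comparison held 114, 68 and 71.8 CPM of the proliferation genes, the lowest median of any group.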

How the data were processed

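Reads of 24 libraries had been mapped to GRCz11 in CLC Genomics Workbench (version not given in the sources used here) by the authors, who deposited total counts per gene for 25281 genes without normalization. The authors also deposited TPM values, counts divided by transcript length and scaled to a fixed sum, which were used to rank genes by level. The deposited RPKM and CPM columns and the authors' comparisons (fold changes, p-values) were not used. The sources used here give no setting for strand or for reads that map to several places. Columns without a sample numbered 0, and 0 pairs of libraries held identical counts.

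Counts were scaled by TMM and tested with edgeR 4.0.16 (R 4.3.3, limma 3.58.1) on genes kept by filterByExpr (minimum count 10), with glmQLFit (robust) and glmQLFTest on the 12 libraries of a time point, or on all 24 for comparisons across time. Benjamini-Hochberg adjustment ran over the 17536 (2dpi), 17515 (4dpi) or 18939 (both) genes tested, and 0.05 was the threshold. CPM values use TMM factors of all 24 libraries. Standard errors (SE) are the size of the log2 fold change divided by the square root of F. Libraries of one time point and replicate number carry one date in the descriptions of the labels, whose meaning is not stated, and their residuals correlated at a mean of 0.147 (2dpi) and 0.0550 (4dpi). The descriptions also hold a number after the letter S, which does not run on within every date. It restarts between the MTZ- and MTZ+ libraries of replicate 3 at 2dpi, and at MTZ+ rapamycin replicate 1 at 4dpi. What this number marks is not stated either, and its part was not tested. Alternatives were DESeq2 1.42.0, median-of-ratios factors, no count filter, a replicate block, the compared groups alone, the study's filters and leaving out libraries. The code was also tried on simulated counts. These varied less between libraries than the data do, so that trial does not give the error rates of the tests here. Total counts were 20607731 to 37189527 a library. Reads carry no molecular identifiers, so depth speaks to counting error only.

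Members and lists were chosen with earlier results of these data known. The list of other biogenesis factors also holds *neurl4*, which was entered in error and kept in the counts. Library values are given for members by a rule: in each role the 2 with the smallest and the 1 with the largest p for rapamycin in MTZ+ at 4dpi, members called against the majority, and the smallest p of each other comparison. Further members, and genes of other lists other than the extremes of log2 fold change, were named after their values were seen. The split of genes by transcript length was added after the data were seen.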

Additional observations from a re-analysis of the deposited data

Results flagged for a closer look

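The effect of rapamycin at 4dpi differed between ablated and intact larvae, by a test of the difference itself, in 5 members. All were more positive in ablated larvae, where 0.605% of all genes were called more positive and 2.86% more negative. The calls of *nob1*, *nsa2* and *gtpbp4* were lost in some fits without a single library. On the log2 scale the differences were 2.02 for *ddx21*, 1.58 for *gnl2*, 1.72 for *nob1*, 1.28 for *nsa2* and 1.14 for *gtpbp4*.

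The effect of ablation with DMSO differed between 4dpi and 2dpi, by the same kind of test, in 13 members. All were lower at 4dpi, where 1.2% of all genes were called lower and 1.53% higher. The count fell without some single libraries, and time and label date cannot be told apart. The differences were -2.07 for *nob1*, -2.12 for *ddx21*, -2.31 for *ncl*, -1.72 for *gnl3l*, -1.90 for *mak16*, -2.55 for *tsr1*, -1.55 for *gtpbp4*, -1.83 for *gnl2*, -1.42 for *nop56*, -1.87 for *wdr3*, -1.97 for *ltv1*, -2.42 for *noc2l* and -1.63 for *wdr43*. *nob1*, *ddx21*, *gtpbp4* and *gnl2* appear in both sets, which share the MTZ+ DMSO and MTZ- DMSO libraries at 4dpi. Groups of 3 libraries are too small for a test of single outlying libraries.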

How the results depend on the processing

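Single members were followed where the naming rule picked them or a rapamycin comparison called them. In these no called direction turned under any alternative run. Counted over members and settings, the call was the same in 496 cases, lost in 81 and gained in 12. Directions of other called members were not compared one by one. Counts of members called stayed within 1.5 times of those reported in 146 settings and moved in 47, and medians stayed within the spread of replicates in 174 and moved in 5. With DESeq2 the counts were 4 (rapamycin in MTZ+ at 2dpi), 2 (MTZ- at 2dpi), 20 (MTZ+ at 4dpi), 1 (MTZ- at 4dpi), 12 (difference at 4dpi), 21 (ablation by time), 13 (time in MTZ- DMSO) and 17 (time in MTZ+ DMSO). DESeq2 called 2.85%, 1.1%, 4.39% and 7.58% of all genes higher in the rapamycin comparisons, in the same order, and 2.58% for the difference. It called 3.29% lower for ablation by time and 2.75% lower for time in MTZ+ DMSO. For time in MTZ- DMSO no share by DESeq2 is given. With median-of-ratios factors the counts of members were 1 for rapamycin in MTZ+ at 2dpi and 0 for time in MTZ+ DMSO. Fits of the compared groups only gave 0 and 3 for rapamycin in MTZ+ at 2dpi and 4dpi, and 0 for time in MTZ+ DMSO. The replicate block gave 2 calls for rapamycin in MTZ- at 2dpi and a median of 2.87 for ablation with rapamycin at 2dpi, and moved no other count by over 1.5 times. Comparisons of time alone had no block, since no label date is shared across times. Without replicate 2 of both MTZ+ groups at 4dpi, 2 members were called for rapamycin and 1 for the difference.

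Leaving out 1 library at a time gave 0 to 1 calls for rapamycin in MTZ+ at 2dpi, 3 to 23 at 4dpi, 2 to 9 for the difference at 4dpi with medians from 0.58 to 1.13, 7 to 14 for ablation by time, 6 to 13 for time in MTZ- DMSO, and 0 to 2 for time in MTZ+ DMSO. The median for ablation with rapamycin at 2dpi was 2.68 to 2.85. Shares of all genes are not given for any fit that leaves out libraries. Nor are they given for fits with median-of-ratios factors, the compared groups only or the replicate block. Changes in these counts are therefore not read as particular to the members. The causes were not tested. Where a group is left with 2 libraries, they are assumed to vary like the other groups.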
